A study of Mus musculus with 7 samples.

Results

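The RAS–MAPK pathway carries signals from fibroblast growth factor and other receptors through Ras, Raf and MEK to the kinase ERK, and active ERK induces genes whose products restrain it. The 7 genes described here belong to this circuit. Klhl13 and Dusp9 lie on the X chromosome and are known as dosage regulators of MAPK signalling in embryonic stem (ES) cells, where a female cell with both X chromosomes active makes more of each. The other 5, Dusp6, Spry2, Spry4, Spred1 and Etv5, are autosomal feedback and target genes. All 7 of the 22556 genes in the count files were found by symbol and all passed the filter on low counts. They were chosen with results from these libraries known, and Klhl13 was picked as one of the genes that differed most between the lines, so its line difference is given without a test.

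Chromatin-associated RNA (ChrRNA-seq, the nascent and unreleased RNA that stays with chromatin) was sequenced from female mouse ES cells, F1 hybrids of a Mus musculus domesticus 129 strain (Dom) and Castaneus (Cast). In iXist-ChrX-Dom (n = 4) a doxycycline-inducible TetOn promoter stands in for the Xist promoter on the Dom X chromosome, and in iXist-ChrX-Cast (n = 3) on the Cast X chromosome. All 7 libraries came from cells given 1 µg/mL doxycycline for 10 days without differentiation, and no uninduced library was analysed here. Each line is a single clone, and the labels do not say whether replicates were separate cultures, so p-values measure the spread between these libraries only. The Xist-coated chromosome is called Xi and the other Xa. According to the paper, a recombination event in iXist-ChrX-Dom leaves only part of its X chromosome informative by allele. In that part, where Klhl13 and Dusp9 lie, the Xa of iXist-ChrX-Dom carries the Cast alleles and that of iXist-ChrX-Cast the Dom alleles. Line, parental allele and X state thus cannot be told apart in a comparison of a single X-linked gene between the lines.

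Libraries held 14877384 to 24309806 counted fragments, of which 44.2 to 46.4% were assigned to an allele. For replicates 3 and 4 of iXist-ChrX-Dom, the description field reads d1 whereas title and treatment read 10 days, and the latter was taken. For replicates 1 and 2 of iXist-ChrX-Cast, the clone in the file name differs from the labelled clone by 1 character. Replicates 3 and 4 stood apart from replicates 1 and 2 in a fit that pooled the lines. In iXist-ChrX-Cast this second set is replicate 3 alone. Adjusted for line, 30.3% of 15186 tested genes differed between these replicate sets (edgeR quasi-likelihood test, Benjamini-Hochberg adjusted p under 0.05, the threshold throughout). Results are therefore also given with the replicate number as a block, a fit that compares same-numbered libraries and to which iXist-ChrX-Dom replicate 4 adds nothing because it has no partner. Of the ES cell markers, 9 of 10 were above 1 CPM (a gene's fragments scaled to 1000000 counted fragments), with summed levels of 1386 to 1739 CPM. The feeder fibroblast list had 6 of 8 above 1 CPM and summed to 761 to 1073 CPM, with Fn1 alone at 729 to 1047 CPM. The primitive endoderm list summed to 51.2 to 64.2 CPM and the neural list to 27.3 to 57.6 CPM. Without the block, edgeR called no marker listed for ES cells, feeder fibroblasts, neural cells or primitive endoderm between the lines. Uncalled is not equal. Neural Pax6 gave 9.02 to 19.3 CPM in iXist-ChrX-Dom and 3.77 to 7.73 CPM in iXist-ChrX-Cast (log2 fold change 1.18, adjusted p = 0.0905). The ES cell marker Tfcp2l1 was at -0.50 (adjusted p = 0.0551). Sox2 and Sox1 were counted at 0, and each lies inside another gene on the same strand (Sox2ot and Gm5607). No member overlaps another counted gene.

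Promoter sequence is shown for 4 members as reference for the gene starts measured here, Klhl13 for the largest line difference and Dusp6, Spry2 and Spred1 as feedback genes that were lower in iXist-ChrX-Dom with the replicate block. Each is the 250 bases before a start in RefSeq on GRCm38.p6, read 5′ to 3′ on the gene's strand, and is the reference sequence rather than that of either parental allele. RefSeq gave 5 windows for Klhl13 and 2 for Etv5. For each gene only the window whose start lies closest to the gene's outer end was searched. Capitals mark a 6-base form of the motif of ETS factors, the transcription factors through which ERK acts on many of its targets. It is spelled CGGAAG or, on the other strand, CTTCCG. Shorter or other forms, such as GGAA alone, were not searched for and are not marked. The positions are chrX:23365083-23365332 (minus strand) for Klhl13, chr10:99262981-99263230 (plus) for Dusp6, chr14:105896820-105897069 (minus) for Spry2 and chr2:117120821-117121070 (plus) for Spred1.
Klhl13: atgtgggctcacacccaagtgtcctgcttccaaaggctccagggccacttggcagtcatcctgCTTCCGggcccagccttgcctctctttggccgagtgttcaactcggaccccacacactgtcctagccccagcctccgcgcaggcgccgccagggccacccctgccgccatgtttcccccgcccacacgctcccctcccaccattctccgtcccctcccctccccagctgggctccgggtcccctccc
Dusp6: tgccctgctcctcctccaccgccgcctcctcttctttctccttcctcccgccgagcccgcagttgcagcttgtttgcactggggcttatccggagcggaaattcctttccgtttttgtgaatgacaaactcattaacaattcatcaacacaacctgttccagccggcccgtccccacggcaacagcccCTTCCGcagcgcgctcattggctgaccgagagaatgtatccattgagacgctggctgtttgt
Spry2: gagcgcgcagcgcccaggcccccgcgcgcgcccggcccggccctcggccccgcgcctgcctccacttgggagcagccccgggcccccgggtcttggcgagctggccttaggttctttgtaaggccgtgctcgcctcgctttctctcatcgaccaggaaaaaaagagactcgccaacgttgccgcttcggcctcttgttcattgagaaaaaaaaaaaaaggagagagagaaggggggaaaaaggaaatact
Spred1: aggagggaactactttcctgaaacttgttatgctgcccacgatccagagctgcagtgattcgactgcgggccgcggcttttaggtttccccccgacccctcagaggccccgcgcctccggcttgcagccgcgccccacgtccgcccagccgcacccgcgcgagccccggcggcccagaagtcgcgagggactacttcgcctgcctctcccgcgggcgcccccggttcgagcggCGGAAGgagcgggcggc
A single match to this 6-base form stood 187 to 182 bases before the start of Klhl13, 62 to 57 bases before that of Dusp6 and 17 to 12 bases before that of Spred1. No match to it was found in the windows of Spry2 and Etv5, although the Spry2 window does hold GGAA. Of 32536 different promoter windows of this length, 13.7% held the 6-base form. Neither an AP-1 site (TGANTCA, in 6.73% of windows) nor a Capicua site (TGAATGNA, in 3.18%), searched on both strands, was found in the 5 members with a window. A motif match describes the letters only.

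Klhl13 encodes an adaptor that brings substrates to the Cul3 ubiquitin ligase. It had the highest mean level of the members in iXist-ChrX-Dom and, after Spred1, the next highest in iXist-ChrX-Cast, and it was the only member whose RNA was several times higher in iXist-ChrX-Dom. The gene spans chrX:23219270-23365082 (mm10) and gave 1191, 1242, 2029 and 1827 CPM in iXist-ChrX-Dom replicates 1 to 4 against 368, 370 and 615 CPM in iXist-ChrX-Cast replicates 1 to 3. The lowest iXist-ChrX-Dom library was thus well above the highest iXist-ChrX-Cast library. Mean levels were 1572 ± 419 CPM (SD, n = 4) and 451 ± 142 CPM (SD, n = 3), a ratio of 3.49. Taken set by set, mean log2 CPM differed by 1.72 for replicates 1 and 2. It differed by 1.65 for iXist-ChrX-Dom replicates 3 and 4 against the single iXist-ChrX-Cast replicate 3. Both sets are parts of the libraries in which Klhl13 was picked, so their like size is no separate support. In bulk RNA, fewer cells that express a gene and less RNA per cell cannot be told apart.

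**Figure D1:**
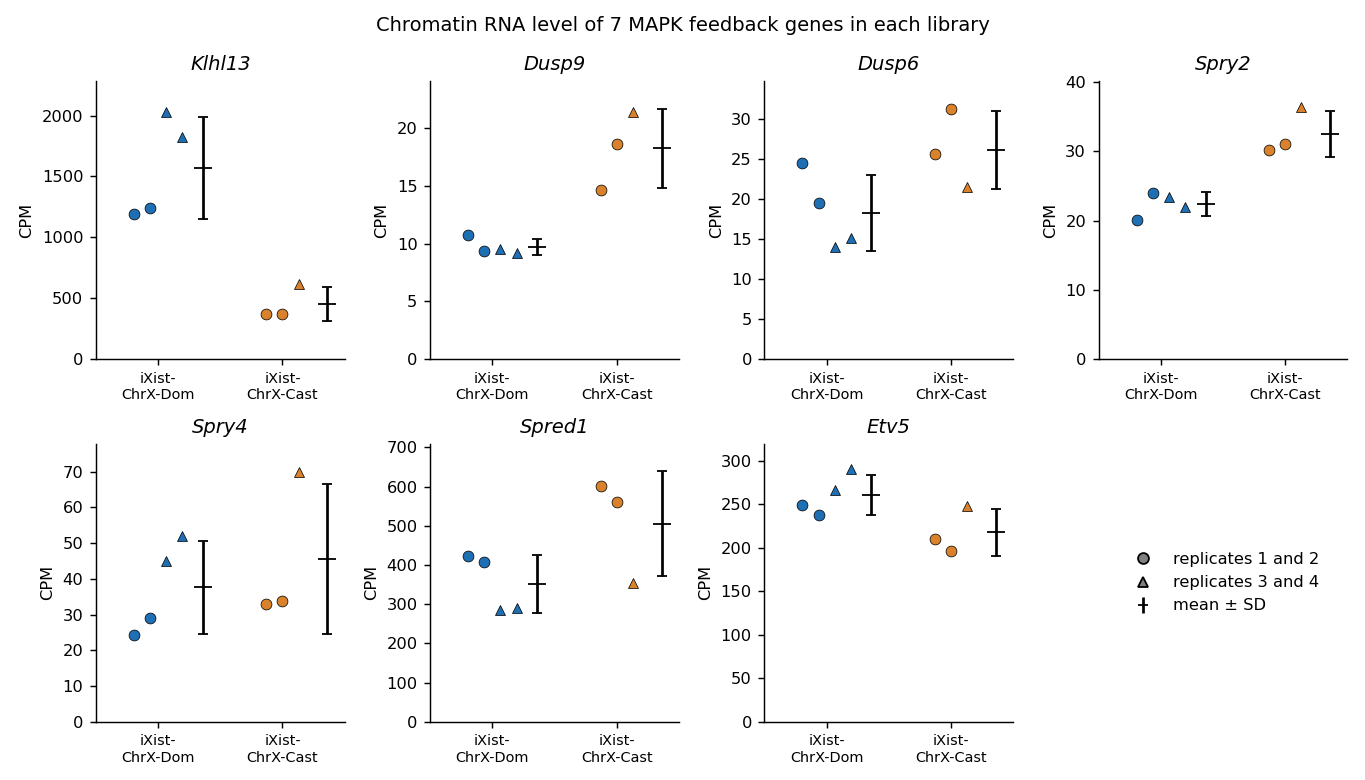
Level of each member (CPM, linear axis from 0) in every library of iXist-ChrX-Dom (blue, n = 4) and iXist-ChrX-Cast (orange, n = 3), with circles for replicates 1 and 2, triangles for replicates 3 and 4, and a bar for the mean ± SD. The lines do not overlap for Dusp9, Spry2 and Klhl13, the last chosen for its line difference, nor for 16.3% of all tested genes. Spry4 and Spred1 separate by replicate set within each line, where the later set of iXist-ChrX-Cast is replicate 3 alone.

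Dusp9 encodes a dual-specificity phosphatase that inactivates ERK. Its level went the other way from that of Klhl13. At chrX:73639440-73643514 it gave 10.7, 9.34, 9.55 and 9.17 CPM in iXist-ChrX-Dom and 14.7, 18.7 and 21.4 CPM in iXist-ChrX-Cast, with no overlap. It was lower in iXist-ChrX-Dom by 0.93 on the log2 scale (log2 fold change -0.93 ± 0.15 SE, edgeR adjusted p = 0.0156), and by 0.90 with the block (-0.90 ± 0.15, adjusted p = 0.000195). The difference of mean log2 CPM was -0.72 in replicates 1 and 2, and -1.19 for iXist-ChrX-Dom replicates 3 and 4 against the single iXist-ChrX-Cast replicate 3. These values rest on 179 to 415 fragments per library, against 5480 to 38458 for Klhl13. The call was lost without iXist-ChrX-Dom replicate 3 (log2 fold change -0.94, adjusted p = 0.0572) and without iXist-ChrX-Cast replicate 2 (-0.91, adjusted p = 0.113).

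Dusp6 encodes a further ERK phosphatase, induced by the pathway it shuts off. It spans chr10:99263230-99267489 and gave 24.5, 19.5, 14 and 15.1 CPM in iXist-ChrX-Dom and 25.7, 31.3 and 21.5 CPM in iXist-ChrX-Cast. Levels were lowest in replicates 3 and 4 of iXist-ChrX-Dom and in the single replicate 3 of iXist-ChrX-Cast, and the lines overlapped. The log2 fold change was -0.55 ± 0.21 (SE, adjusted p = 0.200) without a block and -0.48 ± 0.14 (adjusted p = 0.0169) with it.

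The Sprouty proteins act on receptor signalling upstream of Ras. Spry2, at chr14:105891946-105896819, gave 20.0, 24.0, 23.4 and 22.0 CPM in iXist-ChrX-Dom and 30.1, 31.0 and 36.3 CPM in iXist-ChrX-Cast. The highest iXist-ChrX-Dom library was below the lowest iXist-ChrX-Cast library. Spry2 was lower in iXist-ChrX-Dom (log2 fold change -0.56 ± 0.12 SE, adjusted p = 0.0416) and lower also with the block (-0.56 ± 0.12, adjusted p = 0.00292). The unblocked call was lost without any of the 4 iXist-ChrX-Dom replicates and without iXist-ChrX-Cast replicate 1 or 2, with adjusted p values of 0.0756 to 0.192. Spry2 lies on a chromosome whose median log2 difference between the lines was -0.17 over 525 genes, and where the median share of allelic fragments from Cast was 54.2, 54.2 and 49.2% in iXist-ChrX-Cast replicates 1 to 3 against 47.2 to 48.0% in iXist-ChrX-Dom.

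Spry4, on chromosome 18, gave 24.3, 29.0, 44.8 and 52.1 CPM in iXist-ChrX-Dom and 32.9, 33.9 and 69.8 CPM in iXist-ChrX-Cast. Replicates 3 and 4 of iXist-ChrX-Dom and the single replicate 3 of iXist-ChrX-Cast were higher than replicates 1 and 2, which left the lines overlapping. The log2 fold change was -0.29 ± 0.30 (SE, adjusted p = 0.694) without a block and -0.46 ± 0.11 (adjusted p = 0.00711) with it, and the unblocked value was 0.12 without iXist-ChrX-Cast replicate 3.

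Spred1 encodes a Sprouty-related protein that brings the Ras inhibitor neurofibromin to the membrane. At chr2:117121070-117182277 it gave 423, 408, 284 and 291 CPM in iXist-ChrX-Dom and 602, 561 and 354 CPM in iXist-ChrX-Cast. Here replicates 3 and 4 of iXist-ChrX-Dom and the single replicate 3 of iXist-ChrX-Cast were the low ones. The log2 fold change was -0.56 ± 0.21 (SE, adjusted p = 0.197) without a block and -0.45 ± 0.13 (adjusted p = 0.0146) with it. Without iXist-ChrX-Cast replicate 3 the unblocked value was -0.78 (adjusted p = 0.0186).

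Etv5 encodes an ETS transcription factor whose gene is a target of fibroblast growth factor signalling. At chr16:22381312-22439570 it gave 250, 237, 266 and 291 CPM in iXist-ChrX-Dom and 210, 196 and 248 CPM in iXist-ChrX-Cast. Its log2 fold change was 0.24 ± 0.11 (SE, adjusted p = 0.296), and 0.18 ± 0.11 (adjusted p = 0.336) with the block. Among the 5 autosomal members, its value alone was above 0.

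**Figure D2:**
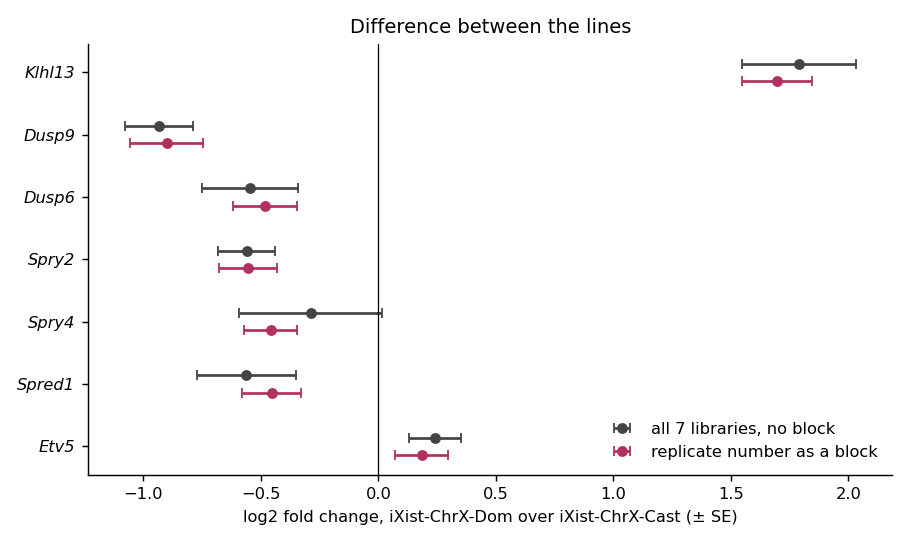
Log2 fold change of each member between the lines (iXist-ChrX-Dom over iXist-ChrX-Cast, points with SE bars), from the edgeR fit to all 7 libraries without a block (grey) and with the replicate number as a block (red). Klhl13 is at 1.79 and 1.70, Dusp9, Dusp6, Spry2, Spry4 and Spred1 are below 0 in both fits, and the bar of Spry4 shortens from 0.30 to 0.11 with the block.

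Of the 6 members other than Klhl13, 2 passed the threshold without the block, both lower in iXist-ChrX-Dom, where 2.92% of the 15186 tested genes were called, 1.20% higher and 1.72% lower. With the block 5 of the 6 passed, again all lower, where 11.8% of all genes were called, 5.37% higher and 6.45% lower. The count was also 5 with the replicate set as a covariate (15.8% of all genes called, 8.28% lower). Within replicates 1 and 2 of each line it was 3 (11% of all genes called, 5.83% lower), namely Dusp9, Spry2 and Spred1. The median log2 fold change over all 7 members was -0.55 without the block and -0.46 with it, and over all tested genes it was -0.0028 and -0.0013. Apart from Klhl13, which was chosen for its line difference, libraries of the lines did not overlap for Dusp9 and Spry2, 2 of 6 members, and for 16.3% of all tested genes.

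Per kilobase of transcribed span, mean levels in iXist-ChrX-Dom ran from 10.8 CPM per kb for Klhl13 and 5.74 for Spred1 through 4.59 for Spry2, 4.48 for Etv5 and 4.29 for Dusp6 to 2.50 for Spry4 and 2.38 for Dusp9. In iXist-ChrX-Cast the order was Spred1 (8.26 CPM per kb), Spry2 (6.66), Dusp6 (6.14), Dusp9 (4.48), Etv5 (3.74), Klhl13 (3.09) and Spry4 (3.03). Klhl13 thus stood first in one line and sixth in the other on this scale. Steps between neighbours exceeded the SD of both only from Klhl13 to Spred1 and from Dusp6 to Spry4 in the first line, and only from Dusp6 to Dusp9 in the second.

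Allelic fragments showed on which chromosome the Klhl13 difference lay. The allelic ratio, the share of allelic fragments that come from Xi, was 0.0346, 0.0263, 0.0382 and 0.0399 in iXist-ChrX-Dom, with the Dom allele on Xi, and 0.206, 0.221 and 0.231 in iXist-ChrX-Cast, with the Cast allele on Xi. No library of one line came near the range of the other. The 95% Wilson intervals, which cover counting error only, together spanned 0.0236 to 0.0430 over the iXist-ChrX-Dom libraries and 0.191 to 0.242 over the iXist-ChrX-Cast libraries. In iXist-ChrX-Dom 4.88% of the 246 X-linked genes in the authors' ratio table had a lower mean ratio than Klhl13, and in iXist-ChrX-Cast 78.9% of 399 genes did. The tables differ in how much of the X chromosome they cover. These ratios belong to the contrast by which Klhl13 was chosen and are not tested.

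On Xa, Klhl13 gave 455, 508, 885 and 792 CPM of allelic fragments in iXist-ChrX-Dom (Cast allele) and 131, 124 and 212 CPM in iXist-ChrX-Cast (Dom allele). The mean Xa level was 660 ± 211 CPM (SD, n = 4) and 156 ± 48.7 CPM (SD, n = 3), a ratio of 4.24. On Xi the order of the lines turned, with 24.5 ± 11.1 CPM (SD, n = 4) from the Dom allele of iXist-ChrX-Dom and 44.2 ± 16.7 CPM (SD, n = 3) from the Cast allele of iXist-ChrX-Cast, and the libraries overlapped. Mean Xa exceeded mean Xi by 26.9 times in iXist-ChrX-Dom and by 3.52 times in iXist-ChrX-Cast. Within each chromosome state, the Cast allele was therefore the one with the higher mean.

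**Figure D3:**
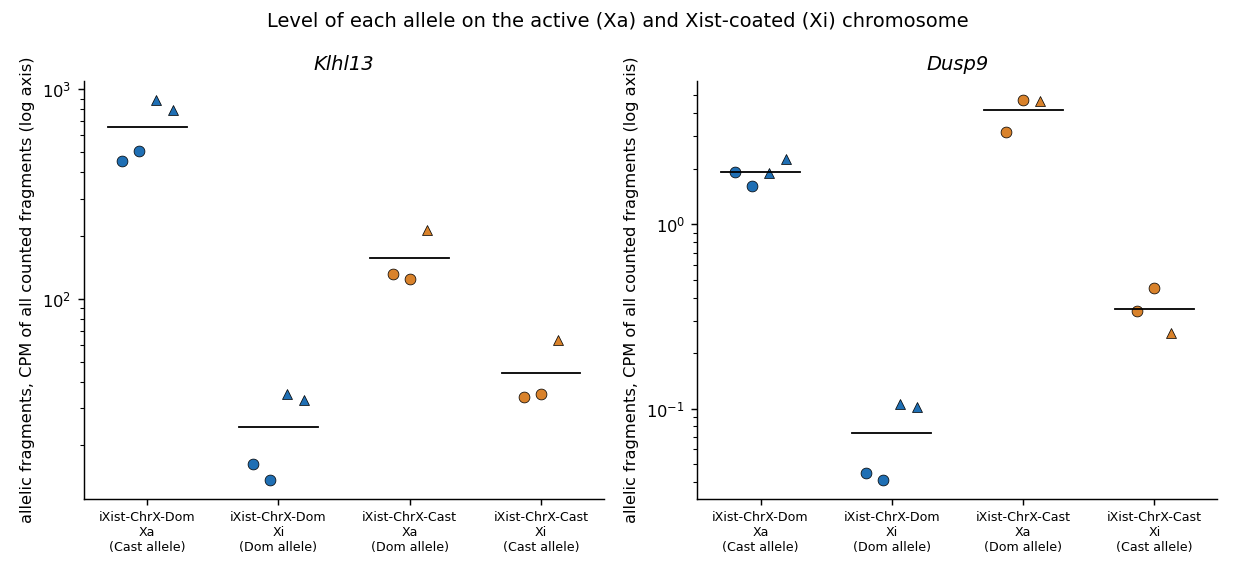
Level of allelic fragments (CPM of all counted fragments, log axis) of Klhl13 and Dusp9 on the active (Xa) and Xist-coated (Xi) chromosome of iXist-ChrX-Dom (blue, n = 4) and iXist-ChrX-Cast (orange, n = 3), with circles for replicates 1 and 2, triangles for replicates 3 and 4, lines at the means and the parental allele under each column. Klhl13 on Xa averages 660 in the blue column and 156 in the orange one, and the Xi points of Dusp9 in iXist-ChrX-Dom are 1 or 2 fragments each.

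Dusp9 gave few Xi fragments in both lines. Its ratio was 0.0227, 0.0250, 0.0526 and 0.0435 in iXist-ChrX-Dom and 0.0962, 0.0874 and 0.0526 in iXist-ChrX-Cast, so that the lines met at replicate 3 of each. Behind these ratios stood 1, 1, 2 and 2 Xi fragments of 38 to 46 allelic fragments, and 5, 9 and 5 Xi fragments of 52 to 103. Mean ratios were 0.0360 and 0.0787, and 5.69% and 32.6% of the genes in the respective ratio tables were lower. Wilson intervals ran as wide as 0.0146 to 0.173 in iXist-ChrX-Dom and 0.0418 to 0.206 in iXist-ChrX-Cast. The log-odds of the ratio, on the log2 scale as throughout, were lower in iXist-ChrX-Dom by limma over the 235 genes in both ratio tables. The difference was -1.03 ± 0.33 (SE, adjusted p = 0.0481), and 33.2% of genes were called. With the replicate block (23.0% of genes called) the difference of Dusp9 was -1.13 and no longer passed (adjusted p = 0.162), and it was lost without each of 5 of the 7 libraries. On Xa, Dusp9 gave 1.92 ± 0.27 CPM of allelic fragments (SD, n = 4) from the Cast allele of iXist-ChrX-Dom and 4.17 ± 0.88 CPM (SD, n = 3) from the Dom allele of iXist-ChrX-Cast, a ratio of 0.460. The line difference in total Dusp9 RNA was thus also present on the active chromosome, with 1.60 to 2.26 CPM in iXist-ChrX-Dom libraries and 3.16 to 4.71 CPM in those of iXist-ChrX-Cast.

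Of the tested genes next to Klhl13, 3 on each side, none was called. Their log2 fold changes ran from -0.49 (Il13ra1) to 0.36 (Slc6a14). Most say little about its surroundings. The 3 at lower coordinates end by chrX:21742357 and averaged only 0.719 to 2.33 CPM in either line. On the other side, Dock11 and Il13ra1 start only at chrX:35888831 and chrX:36112138. The nearest, Wdr44, starts at chrX:23693116 and gave 147 ± 3.49 CPM (SD, n = 4) and 154 ± 17.4 CPM (SD, n = 3). Beside Dusp9, none of 6 was called without the block. The creatine transporter gene Slc6a8, at chrX:73673132-73682500, had a log2 fold change of -0.65 (adjusted p = 0.106), and -0.71 with the block (adjusted p = 0.000272).

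For the 5 autosomal members the share of allelic fragments from Cast was compared between the lines. None passed the threshold (limma on log-odds, adjusted over 12029 autosomal genes, of which 11.2% were called), and 2 of the 5 had an unadjusted p under 0.05, Dusp6 and Spry2. The share of Dusp6 was 44.5, 37.8, 40.9 and 31.2% in iXist-ChrX-Dom and 44.1, 50.6 and 51.1% in iXist-ChrX-Cast (adjusted p = 0.156). That of Spry2 was 42.7, 47.5, 35.1 and 31.6% against 50.5, 51.9 and 46.1% (adjusted p = 0.210). Both rest on 64 to 178 allelic fragments per library. The better covered Spred1, with 2734 to 5606 allelic fragments, had mean shares of 44.3 ± 0.40% (SD, n = 4) and 44.9 ± 1.49% (SD, n = 3), and Etv5 50.4 ± 0.66% and 50.3 ± 2.03%. The mean shares of Spry4 were 47.6 ± 2.89% and 46.6 ± 2.17%.

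The replicate sets were compared with line as a covariate. Klhl13 was higher in replicates 3 and 4 (log2 fold change 0.68 ± 0.09 SE, adjusted p = 9.57e-05), as was Spry4 (0.92 ± 0.09, adjusted p = 1.27e-05). Dusp6 (-0.53 ± 0.11, adjusted p = 0.00283) and Spred1 (-0.62 ± 0.09, adjusted p = 0.000203) were lower. Dusp9 (0.08), Spry2 (0.11) and Etv5 (0.21, adjusted p = 0.0535) were not called. These 4 calls of 7 members stand beside 30.3% of all tested genes. Marker genes moved with the sets too. In the ES cell list 3 were called (Pou5f1, Zfp42 and Klf2), all higher in replicates 3 and 4. Of 2 called in the feeder list, Col3a1 was lower and Postn higher. Of 3 called in the neural list, Pax6 and Nes were lower and Tubb3 higher. Of 3 called in the primitive endoderm list, Gata4 and Gata6 were higher and Dab2 lower. The summed neural level was 57.6, 51.3, 35.5 and 33.8 CPM in iXist-ChrX-Dom and 27.3, 32.1 and 32.7 CPM in iXist-ChrX-Cast. It was thus lower in replicates 3 and 4 only in the first line. The part of these markers in the members' differences was not tested. If d1 were the right time for iXist-ChrX-Dom replicates 3 and 4, the set difference within that line would also be one of time. Line comparisons that use these libraries would then mix line with time as well. Replicate 3 of iXist-ChrX-Cast, labelled 10 days throughout, moved in the same direction as they did for every member but Dusp9. It is 1 library, and the part of time was not tested. A test of whether the line difference depended on the set (edgeR interaction term) called 0 of the 7 members and 0.0132% of all genes, and 0 of the members had an unadjusted p under 0.05.

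**Figure D4:**
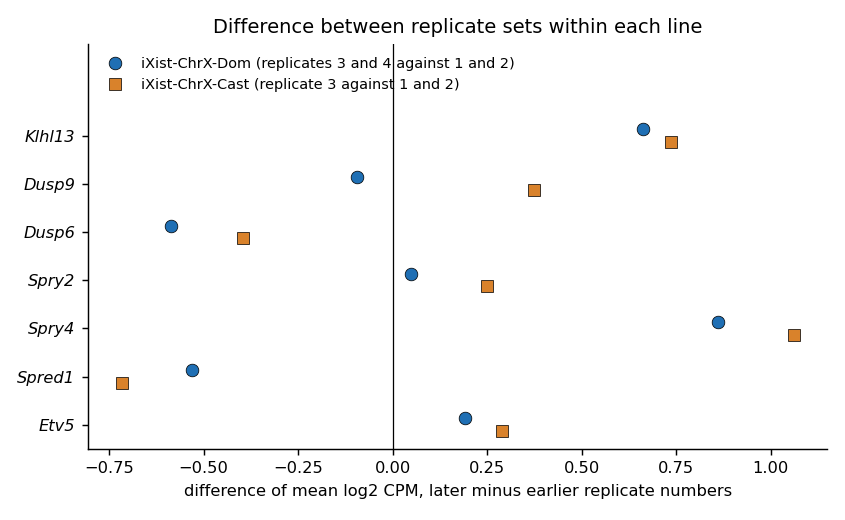
Difference of mean log2 CPM between the replicate sets for each member, within iXist-ChrX-Dom (blue circles, replicates 3 and 4 minus 1 and 2) and within iXist-ChrX-Cast (orange squares, replicate 3 minus 1 and 2). Klhl13 and Spry4 lie above 0 and Dusp6 and Spred1 below 0 in both lines, while Dusp9 is at -0.10 and 0.37.

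The wider pathway was read from a list of 119 genes by role, of which 118 were in the count files and 112 passed the filter. Without the block 8 (7.14%) differed between the lines, 5 higher and 3 lower in iXist-ChrX-Dom, beside 2.92% of all tested genes. With the block 24 did (21.4%), 9 higher and 15 lower, beside 11.8% of all genes. The list's median log2 fold change was -0.086 and -0.059 in these fits.

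Among adaptors and exchange factors, 3 of 12 were higher in iXist-ChrX-Dom and none lower without the block, beside 1.20% of all tested genes higher and 1.72% lower. Gab1, a docking protein that links receptors to Ras, gave 341, 308, 377 and 437 CPM in iXist-ChrX-Dom and 102, 85.2 and 147 CPM in iXist-ChrX-Cast (log2 fold change 1.70 ± 0.18 SE, adjusted p = 0.00258). The lowest library of the first line was thus above the highest of the second. Rasgrp1, an exchange factor that loads Ras with GTP, gave 8.19 to 11.6 CPM against 3.21 to 5.06 CPM (1.33 ± 0.22, adjusted p = 0.0160). Grb2, the adaptor between receptors and the exchange factor Sos, gave 85.2 to 109 CPM against 47.0 to 73.6 CPM (0.72 ± 0.16, adjusted p = 0.0440).

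Among receptors, Fgfr1 was higher (0.67 ± 0.12 SE, edgeR adjusted p = 0.0216) and the stem cell factor receptor Kit lower (-0.52 ± 0.09, adjusted p = 0.0216). The ligand Pdgfa (-0.65 ± 0.14, adjusted p = 0.0440) and the Ras-related GTPase Mras (-1.06 ± 0.18, adjusted p = 0.0208) were lower. Rasa3, which inactivates Ras, was higher (0.63 ± 0.14, adjusted p = 0.0438). For all 8 called genes the libraries of the lines did not overlap, as for 16.3% of all tested genes. All 8 were also called with the block, as were all 443 genes called without it. The 8 were picked by the unblocked line test, so neither count is separate support for them. Gab1, Fgfr1 and Rasa3 lie on chromosome 8, whose median log2 difference between the lines was 0.35 over 806 tested genes, and Kit and Pdgfa on chromosome 5, with a median of -0.40 over 964 genes. Grb2 lies beyond 100 Mb on chromosome 11, where the median was 0.30 over 322 genes. Rasgrp1 is on chromosome 2 (median 0.033) and Mras on chromosome 9 (0.024). The part of these chromosome-wide differences in the genes' values was not tested.

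**Figure D5:**
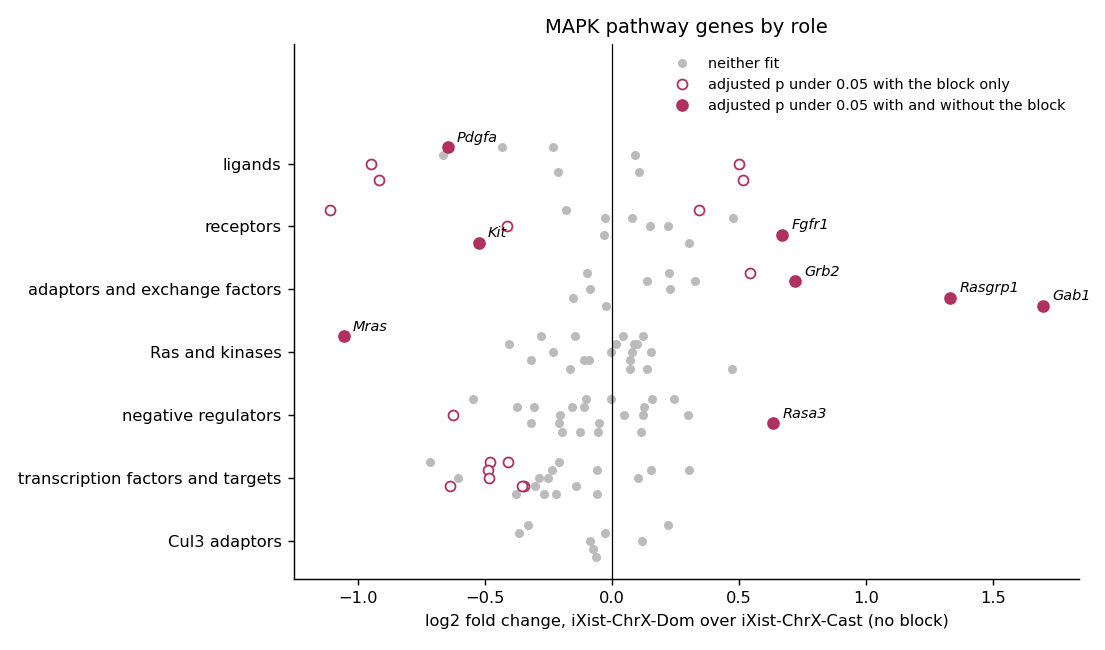
Log2 fold change between the lines (iXist-ChrX-Dom over iXist-ChrX-Cast, fit without a block) of the 112 tested pathway genes by role, with vertical scatter for legibility only. Filled red points passed the threshold with and without the block and are named, open red points passed with the block only, and all 7 open points among the transcription factors and targets lie below 0.

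The group of transcription factors and targets held no called gene of 24 without the block in edgeR, where 6 had an unadjusted p under 0.05, and its median log2 fold change was -0.30. With the block 7 of the 24 were called (29.2%), all lower in iXist-ChrX-Dom, beside 11.8% of all tested genes called and 6.45% called lower. They were Etv1, Elk3, Ets2, Egr1, Ccnd1, Epha2 and Lef1, and the median of the group was -0.35. These 7 names come from the blocked fit and were picked after their values were seen. The most abundant of the group were Etv1, an ETS factor and relative of Etv5, at 233 ± 80.8 CPM (SD, n = 4) and 353 ± 107 CPM (SD, n = 3), and Lef1, a Wnt effector, at 82.7 ± 9.15 CPM and 103 ± 16.2 CPM. Blocked adjusted p values were 0.00459 for Etv1 and 0.0388 for Lef1.

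The 2 most abundant genes of each other role mostly differed little. The kinases Braf (log2 fold change 0.088) and Rps6ka5 (-0.0055), the exchange factor Sos1 (-0.099), the Ras inactivators Rasa1 (-0.11) and Rasal2 (-0.12), the receptors Igf1r (0.15) and Lifr (-0.18) and the growth factor Fgf4 (-0.21) were not called in either fit. Nrg1, a ligand of ERBB receptors on chromosome 8, had a log2 fold change of 0.51 (adjusted p = 0.0735) and passed with the block (0.47, adjusted p = 0.00731). Cul3, the ligase scaffold to which Klhl13 binds, gave 491 ± 41.9 CPM (SD, n = 4) and 603 ± 135 CPM (SD, n = 3) and was not called (adjusted p = 0.326).

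None of the 7 X-linked pathway genes on the list passed in either fit. Of all tested genes, 2.92% were called without the block and 11.8% with it. On the X chromosome 11 of 542 tested genes were called higher and 33 lower without the block. For 7 genes, none called is near these shares. Their unblocked log2 fold changes were 0.12 for the Raf kinase gene Araf, 0.044 for the ribosomal S6 kinase gene Rps6ka3, -0.32 for its relative Rps6ka6, -0.38 for the scaffold gene Cnksr2, 0.10 for the ETS factor gene Elk1, -0.086 for Klhl15 and 0.22 for Klhl4. Mean allelic ratios, where the ratio tables held both lines, were 0.177 and 0.203 for Araf, 0.141 and 0.156 for Elk1 and 0.0971 and 0.132 for Klhl15, with iXist-ChrX-Dom named first. All 3 were above the ratio of Klhl13 in the first line and below it in the second. Rps6ka3, Rps6ka6 and Cnksr2 had ratios only in iXist-ChrX-Cast. There Rps6ka3 (0.227) was above Klhl13 (0.219), and Rps6ka6 (0.0834) and Cnksr2 (0.0755) were below it.

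The genes whose profiles over the 7 libraries were most like that of Klhl13, by root mean square distance between centred log2 CPM values, were Gab1 (0.19), Gm11413 (0.24) and Rasgrp1 (0.25), where the profile of Klhl13 itself had a root mean square of 0.96 about its mean. For Dusp9 (0.47 about its mean) they were Pop5 (0.10), Pramef8 (0.12) and Irf2bpl (0.13), and for Dusp6 (0.38) Cited2 (0.073), Brdt (0.088) and Actn3 (0.090). Only the likeness of profiles over these 7 libraries is meant.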

How the data were processed

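The deposited files held paired-end ChrRNA-seq of 7 libraries (iXist-ChrX-Dom, n = 4; iXist-ChrX-Cast, n = 3), grouped by the line in the labels. The authors discarded reads that matched ribosomal RNA (bowtie2 2.3.2), aligned with STAR (2.4.2a) to mm10 with strain variants masked, split alleles with SNPsplit and made raw counts per gene over whole stranded transcripts, introns included, with featureCounts (1.5.2). The deposited allelic ratio tables hold fractions, Xi over Xi plus Xa, for X-linked genes that the authors had filtered on coverage and balance. For iXist-ChrX-Dom they cover only the part of the X chromosome that is informative in that line. All 246 and 399 genes matched the allelic counts.

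Genes and lists were chosen with earlier results of these data known. Named were all members, the pathway genes called without a block, the X-linked ones, the 2 most abundant per role and the 3 most alike profiles. Totals were scaled by TMM, filtered with filterByExpr and tested with edgeR (4.0.16), two-sided, with Benjamini-Hochberg adjustment over all tested genes and a threshold of 0.05; CPM use raw library totals. Ratios and Cast shares were tested as log-odds on the log2 scale (offset 0.01) with limma (3.58.1). Alternatives were DESeq2 (1.42.0), its size factors, no filter, other offsets, left-out libraries, the replicate set as a covariate and the replicate block. Same-numbered libraries deviated from their line means together (r = 0.320, 0.266 and 0.448 for replicates 1 to 3, each above 0.1), so the numbers were taken to pair libraries; differently numbered libraries of one set did so as much (iXist-ChrX-Dom replicate 1 with iXist-ChrX-Cast replicate 2, r = 0.361; 2 with 1, r = 0.310; 4 with 3, r = 0.488), so the correlations do not separate the number from the set. Depth was 14877384 to 24309806 fragments, and counting intervals are 95% Wilson intervals. The tests were tested on simulated data. RefSeq promoters matched 5 of 7 members.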

Additional observations from a re-analysis of the deposited data

How the results depend on the processing

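Without Klhl13, 2 members passed between the lines. The count was 5 with the replicate block and with the replicate set as covariate, 1 without the filter on low counts, 0 without iXist-ChrX-Dom replicates 3 and 4, 0 without iXist-ChrX-Cast replicates 1 and 2 (an alternative chosen after seeing the data), 0 without chromosomes 5, 8, 12, 14 and X, which removes Dusp9 and Spry2 themselves, and 0 to 3 with 1 library left out. The pathway count of 8 became 16 with DESeq2, 24 with the replicate block, 30 with the set as covariate, 20 within replicates 1 and 2, 1 without iXist-ChrX-Dom replicates 3 and 4, 2 without chromosomes 5, 8, 12, 14 and X, 0 without iXist-ChrX-Cast replicates 1 and 2, and 1 to 18 with 1 library left out, 18 being without iXist-ChrX-Cast replicate 3. Over all genes the unblocked fit called 443, against 18 without iXist-ChrX-Cast replicate 2 and 2398 with the set as covariate.

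The Dusp9 log-odds difference of -1.03 lost its call with an offset of 0.001 (-1.21), on the untransformed ratio (-0.043), with the replicate block (-1.13) and with the set as covariate (-1.06), and was -1.28 to -0.87 with 1 library left out. The Klhl13 ratio in iXist-ChrX-Cast was 0.245 when corrected for the autosomal Cast share. Its line log2 fold change was 1.40 without iXist-ChrX-Dom replicates 3 and 4 and also without iXist-ChrX-Cast replicates 1 and 2. Signs turned for 2 line differences that were called with the block but not without it, Spry4 from -0.29 to 0.12 without iXist-ChrX-Cast replicate 3 (range with 1 library left out -0.49 to 0.12), and Spred1 from -0.56 to 0.026 without iXist-ChrX-Cast replicates 1 and 2. They turned also for uncalled values near 0, Dusp9 between the sets to -0.061 in iXist-ChrX-Dom alone and Cast share log-odds of Spry4 (-0.0047 to 0.13 with 1 library left out), Spred1 (-0.077 to 0.0070 with 1 library left out, 0.011 in replicates 1 and 2, also chosen after seeing the data) and Etv5 (-0.036 to 0.071 with 1 library left out, -0.0076 with the set as covariate). The cause was not tested. The 4 set calls were 4 or 5 and the 0 Cast share calls 0 under every alternative run. Depth limits Dusp9 on Xi, at 1 to 9 fragments per library.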
